A study of Homo sapiens with 2 samples.

Results

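The genes described here are 10 growth factor ligands and receptors with known roles in hepatocellular carcinoma (HCC): the ligands HGF, AREG, EREG, TGFA and FGF19, and the receptors MET, EGFR, ERBB2, ERBB3 and FGFR4. They were listed by symbol and matched by Entrez identifier to the annotation of the deposited files, which held 27685 genes. All 10 were found, and 8 of them reached 1 TPM in at least 1 library, as did 14450 genes in all. TPM is transcript abundance per length, scaled so that each library has the same total of 1000000. RNA sequencing was performed on PLC/PRF/5 cells, an established human HCC line, after 24 h in DMSO (the solvent) or in 6 µM JIB-04, a pan-inhibitor of Jumonji histone lysine demethylases. Each condition was 1 library of the same line, without replicates, so no difference below could be tested against the spread between cultures. One label calls the control untreated, whereas its title names DMSO. A cell line holds tumour cells alone and no stromal, endothelial or immune cells that could send growth factors to them.

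Receptor tyrosine kinases sit in the plasma membrane, pair when a ligand binds and phosphorylate each other, which feeds the RAS-MAPK and PI3K-AKT pathways. HGF, secreted in liver mainly by stellate and other mesenchymal cells, is the ligand of MET. AREG (amphiregulin), EREG (epiregulin) and TGFA (transforming growth factor alpha) are made as membrane precursors, shed by metalloproteases and bind EGFR. ERBB2 has no known soluble ligand, and ERBB3 has a weak kinase, so both act mainly as partners of other ErbB receptors. FGF19, a gut hormone that restrains bile acid synthesis, signals in hepatocytes through FGFR4 and its co-receptor KLB.

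Several of these genes are spliced into alternative transcripts, and 2 short coding segments set apart transcripts followed below. They are printed in the direction of transcription, with the segment in capitals and 30 coding bases on each side in lower case. The HGF segment of 15 bases (5 codons) lies at chr7:81381564-81381578 of hg19 on the minus strand, and is present in transcript NM_000601 and absent from NM_001010932. The MET segment of 54 bases (18 codons) lies at chr7:116399391-116399444 of hg19 on the plus strand, and is present in NM_001127500 and absent from NM_000245. Both were read from the GENCODE v29 transcript matched to each RefSeq transcript, and both have the length that the files' exons give.
HGF: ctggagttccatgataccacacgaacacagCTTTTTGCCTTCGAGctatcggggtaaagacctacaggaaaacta
MET: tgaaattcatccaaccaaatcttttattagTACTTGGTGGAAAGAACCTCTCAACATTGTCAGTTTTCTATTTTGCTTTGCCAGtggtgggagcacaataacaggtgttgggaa

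AREG and EREG are neighbours on chromosome 4 and were both lower with JIB-04, so the 250 bases before their start sites are shown from the RefSeq promoter table (GRCh38.p14, plus strand, chr4:74444886-74445135 for AREG and chr4:74364895-74365144 for EREG). Capitals mark matches, on either strand, to TGACGTCA (the cyclic AMP response element), TATAAA (the TATA box) and GGGCGG (the GC box).
AREG: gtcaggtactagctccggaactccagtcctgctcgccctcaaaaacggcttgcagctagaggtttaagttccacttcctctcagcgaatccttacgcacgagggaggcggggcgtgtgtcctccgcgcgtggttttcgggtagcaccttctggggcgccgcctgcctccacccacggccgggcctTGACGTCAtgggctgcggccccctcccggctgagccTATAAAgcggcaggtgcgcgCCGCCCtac
EREG: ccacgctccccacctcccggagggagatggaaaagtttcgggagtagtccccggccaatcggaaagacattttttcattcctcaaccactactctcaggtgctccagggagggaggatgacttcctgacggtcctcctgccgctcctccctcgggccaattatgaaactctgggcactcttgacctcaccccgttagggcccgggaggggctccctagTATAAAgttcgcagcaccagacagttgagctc

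Both windows held a TATA box, 24 to 29 bases before the start of AREG and 27 to 32 bases before that of EREG, which 10.7% of the 35116 promoters in the table also held within the same 250 bases. The full TGACGTCA element was present in the AREG window, and in 1.65% of all promoters, but not in the EREG window. EREG held its first 5 letters, TGACG, 121 to 125 bases before the start, as did 21.2% of all promoters, a count that includes the windows with the full element. Neither window held ACGTG, the core that hypoxia-inducible factors recognise (18.5% of promoters), or TGANTCA, the AP-1 site (6.57%). These are matches of letters only. The HGF window held none of these 6 motifs.

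HGF had a lower ratio of JIB-04 to DMSO than nearly every other expressed gene. Its level was 26.5 TPM in the control library and 5.06 TPM in the treated one. Ratios here divide TPM + 1 of the treated library by TPM + 1 of the control and are given as log2, which for HGF was -2.18 (95% interval -2.37 to -1.99), or 4.54-fold lower. Only 0.228% of the 14450 expressed genes had a lower ratio. The interval comes from the estimated number of sequenced fragments, 1472 with DMSO and 188 with JIB-04, and covers counting error only. It does not cover how reads were divided among HGF transcripts, on which the summed TPM depends. In the exons shared by all HGF transcripts the ratio was -2.30, or -2.50 without the added 1. HGF lies on chromosome 7 of hg19, from 81328324 to 81399514, on the minus strand.

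Of the 3 EGFR ligands among the 10 genes, both that were expressed were lower with JIB-04. HBEGF, an EGFR ligand outside the 10, is given with its family below. EREG (chromosome 4, 75230860 to 75254477) went from 156 TPM in the control to 65.0 TPM under treatment, with a log2 ratio of -1.25 (-1.31 to -1.19), 2.38-fold lower. AREG, the most abundant of the 10 genes at 409 TPM in the control, was at 229 TPM under treatment, and its log2 ratio of -0.84 (-0.90 to -0.77) did not reach 2-fold. The annotation of the files places AREG at a pair of near-identical loci, 75310815 to 75320726 and 75480591 to 75490485, whereas the newer RefSeq table lists 1 locus. The sources used here do not say how reads that match both were divided, so the copies were summed. Their exons were not covered equally, at 450 and 317 in the first exon and 185 and 263 in the last with DMSO. The first was at 208 and 114 TPM and the second at 201 and 114 TPM, which gave log2 ratios of -0.86 and -0.81. AREG thus exceeded EREG 2.62-fold with DMSO and 3.52-fold with JIB-04.

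TGFA and FGF19 were not detectable at a level that allows a ratio. TGFA (chromosome 2, 70674412 to 70781147) had 0.0563 TPM in the control and 0.0454 TPM under treatment, from about 3 and 2 fragments. All of this coverage lay in the last of its 7 exons, and none lay in the 6 exons before it. FGF19 (chromosome 11, 69513006 to 69519106) was listed at 0 in both libraries and in each of its 3 exons. If no fragment was sequenced, a count of 0 allows up to 0.118 TPM in the control and 0.143 TPM in the treated library (3 fragments).

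The receptors changed less than the ligands, and none reached 2-fold. The 5 receptors had a median log2 ratio of 0.22, against -0.15 for all 14450 genes. EGFR (chromosome 7, 55086714 to 55275773) went from 146 TPM in the control to 192 TPM under treatment, with a log2 ratio of 0.39 (0.35 to 0.44), or -0.94 after division by the reference gene GAPDH. MET (chromosome 7, 116312413 to 116438440) was at 112 and 137 TPM, a ratio of 0.29 (0.24 to 0.33), or -1.05 after division by GAPDH. ERBB3 (chromosome 12, 56473809 to 56497291) was at 123 and 144 TPM, a ratio of 0.22 (0.18 to 0.27), or -1.12 after division by GAPDH. GAPDH itself had a log2 ratio of 1.34, so dividing by it lowers every gene by that amount, and the direction of these 3 receptors depends on it.

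ERBB2 (chromosome 17, 37844337 to 37884915) stayed near its control level of 66.7 TPM, at 64.5 TPM under treatment. Its ratio of -0.05 had an interval that included 0 (-0.12 to 0.02), and it was 0.10 when the median of well expressed genes was set to 0. FGFR4 (chromosome 5, 176513873 to 176525143) was the one receptor clearly lower, from 286 to 184 TPM, with a log2 ratio of -0.63 (-0.68 to -0.59), 1.55-fold lower. FGFR4 was 1.96 times the TPM of EGFR with DMSO and 0.958 times with JIB-04.

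Of the 8 expressed genes, 0 were at least 2-fold higher, against 5.99% of all 14450 genes, and 2 (HGF and EREG) were at least 2-fold lower, against 6.88%. With 8 genes this is a description of a short chosen list.

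**Figure D1:**
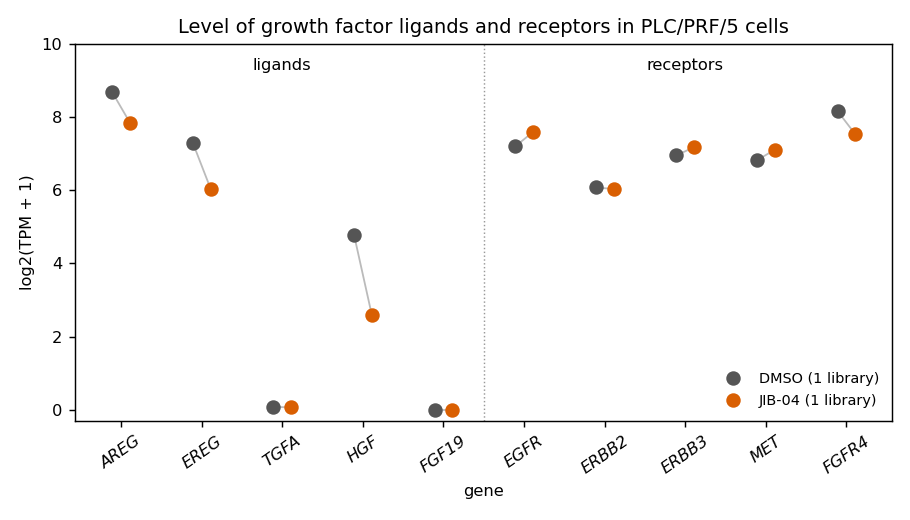
Level of each of the 10 genes, as log2(TPM + 1) on the vertical axis, in the DMSO library (grey) and the JIB-04 library (orange), ligands on the left and receptors on the right. HGF, EREG, AREG and FGFR4 lie lower with JIB-04, EGFR, ERBB3 and MET lie slightly higher (but lower after division by GAPDH), and TGFA and FGF19 lie at or next to 0 in both libraries.

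The order of the levels changed with it. In the DMSO library the order was AREG, FGFR4, EREG, EGFR, ERBB3, MET, ERBB2 and HGF, and the counting intervals of neighbours did not overlap. In the JIB-04 library EREG moved from the third place to the sixth, and the order was AREG, EGFR, FGFR4, ERBB3, MET, EREG, ERBB2 and HGF. There EGFR (192 TPM, interval 188 to 196) overlapped with FGFR4 (184 TPM, 179 to 189), and EREG (65.0 TPM, 62.7 to 67.4) overlapped with ERBB2 (64.5 TPM, 62.2 to 66.8). MET exceeded its ligand HGF 4.23-fold in TPM with DMSO and 27.1-fold with JIB-04.

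HGF is annotated with 5 transcripts in the files. NM_000601 and NM_001010932 encode the full-length factor, of 728 and 723 codons in GENCODE, and differ by the 15 bases printed above. NM_001010931 and NM_001010933 end early and encode NK2, which keeps the N-terminal domain and the first pair of kringle domains (290 and 285 codons, with and without the same 15 bases). NM_001010934 reads on into an intron and encodes NK1, with 1 kringle domain (210 codons). NK1 and NK2 bind MET and are known as partial agonists or antagonists of the full-length factor.

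Every HGF transcript was lower with JIB-04. NM_000601 went from 10.3 TPM in the control to 1.92 TPM, with a log2 ratio of -1.95. NM_001010932, without the 15 bases, was at 8.07 and 0.616 TPM, a ratio of -2.49. The NK2 transcripts were at 1.80 and 1.19 TPM (NM_001010931) and at 2.21 and 0.539 TPM (NM_001010933), and NK1 was at 4.17 and 0.794 TPM. As StringTie divided the reads, the full-length pair held 69.2% of the HGF TPM with DMSO and 50.1% with JIB-04. NK2 held 15.1% and 34.2%, and NK1 15.7% in both libraries.

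**Figure D2:**
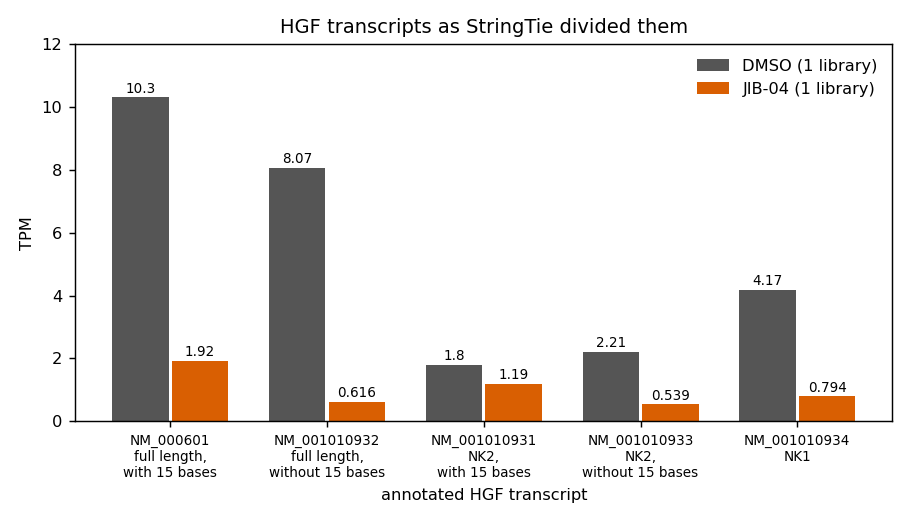
TPM of the 5 annotated HGF transcripts (bars from 0, value above each bar) in the DMSO library (grey) and the JIB-04 library (orange), 1 library each. All 5 are lower with JIB-04, from 10.3 to 1.92 TPM for NM_000601 and from 1.80 to 1.19 TPM for NM_001010931.

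The coverage of single exons, which does not depend on how reads are divided among transcripts, did not show the same change in shares. Overlapping annotated exons were merged, which gave 19 exons for HGF. Exon 8 is the end of NK2 alone, and its mean coverage per base was 7.24 with DMSO and 0.691 with JIB-04 (about 18.6 and 1.77 reads). This was 6.82% and 4.80% of the coverage of exons 6 and 7, which NK2 shares with the full-length transcripts. The intron stretch of NK1, estimated by taking the spliced part of exon 5 at the coverage of its neighbours, was at 10.2% and 9.81% of exons 4 and 6. Thus the larger NK2 share that StringTie assigned with JIB-04 was not matched by coverage of the NK2 end, although fewer than 2 reads there carry little weight.

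For the full-length transcripts, the answer depended on the last exon. The 11 exons they hold alone, exons 9 to 19, had a mean coverage of 51.2% of the 4 exons shared by all transcripts with DMSO and 42.1% with JIB-04. Without the last exon the other 10 were at 102% and 117%. Relative to exons 6 and 7 the same 10 were at 71.7% with DMSO and 89.1% with JIB-04. This was a rise, whereas the share that StringTie assigned fell from 69.2% to 50.1%. The 15 bases can be followed in exon 5 only as StringTie divided it. The form with them (143 bases) had a coverage of 55.0 with DMSO and 9.41 with JIB-04, and the form without them (128 bases) one of 42.8 and 3.66. In TPM of whole transcripts, which StringTie estimates over all exons, the form without them held 46.0% of the full-length and NK2 TPM with DMSO and 27.1% with JIB-04.

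**Figure D3:**
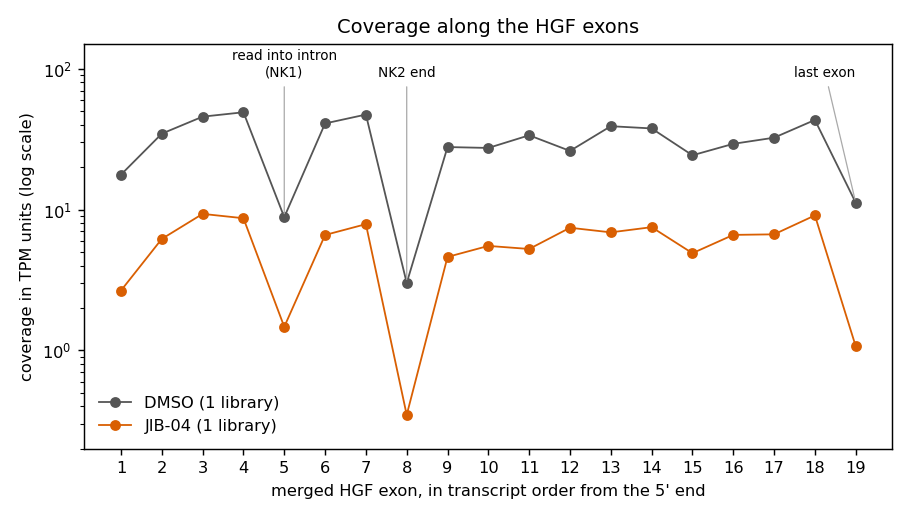
Mean coverage of the 19 merged HGF exons in transcript order, scaled to TPM units (log axis), in the DMSO library (grey) and the JIB-04 library (orange). The libraries run nearly parallel, with low coverage at exon 5 (mostly the NK1 intron stretch), exon 8 (the NK2 end) and the last exon, where the distance is widest (11.2 against 1.07).

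Among exons the direction was the same throughout HGF. All 19 were lower with JIB-04, with log2 ratios of scaled coverage from -3.39 to -1.81 and a median of -2.50 (no pseudocount). The last exon, which is 3750 bases long and mostly untranslated, had the lowest ratio, -3.39 (interval -3.89 to -2.92), against -2.43 (interval -2.69 to -2.18) for the other exons together. EREG showed the same arrangement, with -1.34 (interval -1.41 to -1.27) in its last exon of 4034 bases and -0.92 (interval -1.06 to -0.78) in the other 4. The EREG ratio of the other 4 exons did not reach 2-fold, although its interval included 2-fold. The call of EREG as 2-fold lower therefore rested on the last exon, which held 7246 of its 8603 fragments with DMSO. In the 5 receptors the last exon and the others differed by 0.16 or less. Over 11043 genes with both parts covered, the last exon minus the others had a median of -0.06 and ran from -0.89 to 0.51 between percentiles 5 and 95. The HGF difference of -0.95 was below all but 4.34% of these genes and the EREG difference of -0.42 below all but 18.4%.

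**Figure D4:**
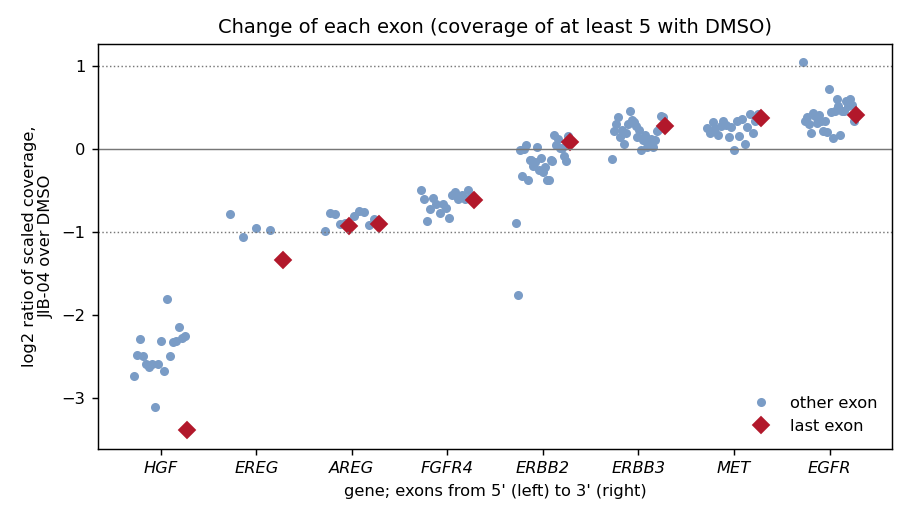
Log2 ratio of scaled coverage, JIB-04 over DMSO, for each merged exon with a coverage of at least 5 with DMSO, in 8 genes with exons in order from the 5' end. Red diamonds are last exons (1 for each AREG copy), which lie at -3.39 in HGF and -1.34 in EREG, below every other exon of the same gene; dotted lines mark 2-fold.

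The remaining genes kept 1 direction along most of their length. All 12 AREG exons were lower, from -0.99 to -0.75, and all 18 FGFR4 exons, from -0.87 to -0.50. Of the MET exons 20 of 21 were above 0, of the ERBB3 exons 26 of 28, and of the 28 covered EGFR exons all, from 0.13 to 1.04. ERBB2 was mixed, with 19 covered exons below 0 and 10 above. Its lowest, exon 3 (-1.76), belongs to the weakly covered upstream exons, at a coverage of 6.11 with DMSO and 1.49 with JIB-04, whereas exons 7 to 32 were covered at least 89.7 deep with DMSO.

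EGFR is annotated with 9 transcripts, and here the division by StringTie was unstable. The full-length NM_005228 was listed at 49.8 TPM in the control and 94.5 TPM under treatment. NM_201284, which encodes a secreted extracellular form, was listed at 0.10 and 29.7 TPM, but the end exon that it alone holds had a coverage of 0.934 and 0.924, or 0.392% and 0.367% of the exons shared by all 9 transcripts. NM_001346941, which skips 5 exons that the other 8 transcripts hold, was listed at 22.8 TPM with DMSO and at 0 with JIB-04. The coverage of those 5 exons, relative to the shared exons, was 89.5% with DMSO and 90.1% with JIB-04. The exons thus showed no change in either transcript that matched the listed TPM, and only the sum over EGFR transcripts is interpreted here. An annotated antisense gene, EGFR-AS1, overlaps EGFR exons, and the stranded libraries were quantified with a strand setting.

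MET was dominated by 1 transcript. NM_000245 held 90.1% of MET in the control (101 TPM) and 91.7% under treatment (126 TPM). NM_001127500, with the 54 extra bases printed above, was at 7.18 and 6.35 TPM, or 6.39% and 4.63%. In the exon that differs, the longer form had a coverage of 13.6 and 10.5 and the shorter form one of 290 and 292. In ERBB3 the full-length NM_001982 (112 and 132 TPM) and the short NM_001005915 (11.1 and 11.8 TPM), which encodes a truncated extracellular form, kept shares of 91.0% and 91.8%, and of 9.03% and 8.22%. The main FGFR4 transcript NM_002011 held 62.8% and 63.0%. As StringTie divided ERBB2, the main transcript NM_004448 was at 60.6 and 47.7 TPM and the noncoding NR_110535 at 2.69 and 10.8 TPM. The ratio of the main transcript alone was thus -0.34. This division was not checked against exon coverage.

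The families around these genes were described with 11 lists of 176 genes written from general knowledge, of which 114 were expressed. At least 2-fold higher were 10 of them (8.77%, against 5.99% of all genes) and at least 2-fold lower 6 (5.26%, against 6.88%). Their median log2 ratio was 0.11 against -0.15. The lists include the chosen genes, and of the 106 expressed genes outside these, 10 were higher and 4 were lower. After division by GAPDH, 5 of the 10 higher genes stayed above 0. The other 5 were below it, namely KLB, FGF22 (-0.31), IGF1R (-0.33), FLT4 (-0.24) and GDF15 (-0.08). GAPDH itself had a log2 ratio of 1.34, so this division lowers every gene by that amount, from a median of -0.15 for all genes. Of the 11 ErbB ligands 4 were expressed, and they went in both directions. Of these 4, 2 were 2-fold higher, against 5.99% of all genes, and 1 (EREG) was 2-fold lower, against 6.88%. HBEGF (heparin-binding EGF-like growth factor) went from 3.17 TPM in the control to 10.9 TPM, a ratio of 1.52 (interval 1.23 to 1.81). NRG4 (neuregulin 4, a ligand of ERBB4) was at 0.999 and 5.36 TPM, a ratio of 1.67 (interval 1.29 to 2.01). With a pseudocount of 5, 0 of the ErbB ligands were 2-fold higher, as were 439 of all 14450 genes, against 865 with a pseudocount of 1. HBEGF and NRG4 were far below AREG and EREG, so that the summed TPM of the ErbB ligands was 570 with DMSO and 310 with JIB-04. The fourth ErbB receptor, ERBB4, was at 6.44 and 5.62 TPM.

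In the HGF family 12 of 15 genes were expressed. Of these 0 were 2-fold higher, against 5.99% of all genes, and 2 were 2-fold lower, against 6.88%, HGF itself and SDC1. SDC1 (syndecan 1, a proteoglycan that binds HGF) went from 73.1 to 31.4 TPM, with a log2 ratio of -1.19 (-1.30 to -1.09). The other 10 genes, among them HGF-activating proteases and their inhibitors, had ratios from -0.78 to 0.49. The lowest was the membrane protease TMPRSS2, at 8.09 and 4.30 TPM, a ratio of -0.78 (interval -1.02 to -0.53), and the highest was the protease inhibitor SPINT1, at 0.525 and 1.14 TPM, a ratio of 0.49 (interval 0.10 to 0.88). The most abundant were the protease inhibitor SPINT2 at 617 and 710 TPM and PLAU (urokinase) at 39.4 and 42.6 TPM.

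The FGF family was mixed. Of 22 FGF ligands 5 were expressed, and 10 were listed at 0 in both libraries. Of the 5, 2 were 2-fold higher, against 5.99% of all genes, and 1 was 2-fold lower, against 6.88%. FGF11, an intracellular FGF that is not secreted, went from 4.52 to 24.4 TPM, with a log2 ratio of 2.2 (1.98 to 2.42). FGF22 was at 1.43 and 3.94 TPM, a ratio of 1.02 (interval 0.28 to 1.77). FGF2, basic fibroblast growth factor, went from 10 to 3.21 TPM, a ratio of -1.38 (interval -1.56 to -1.21). With a pseudocount of 5, 0 FGF ligands were 2-fold lower and 1 was 2-fold higher. The receptor FGFR1 was at 68.1 and 130 TPM, a ratio of 0.92, while FGFR3 was at 74.2 and 60.8 TPM. KLB (beta-klotho) went from 42.1 TPM in the control to 91.0 TPM, a ratio of 1.09 (interval 1.03 to 1.16), opposite in direction to its partner FGFR4, or -0.24 after division by GAPDH. Of the bile acid genes that FGF19 signalling represses in hepatocytes, CYP7A1 and CYP8B1 were listed at 0 in both libraries.

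**Figure D5:**
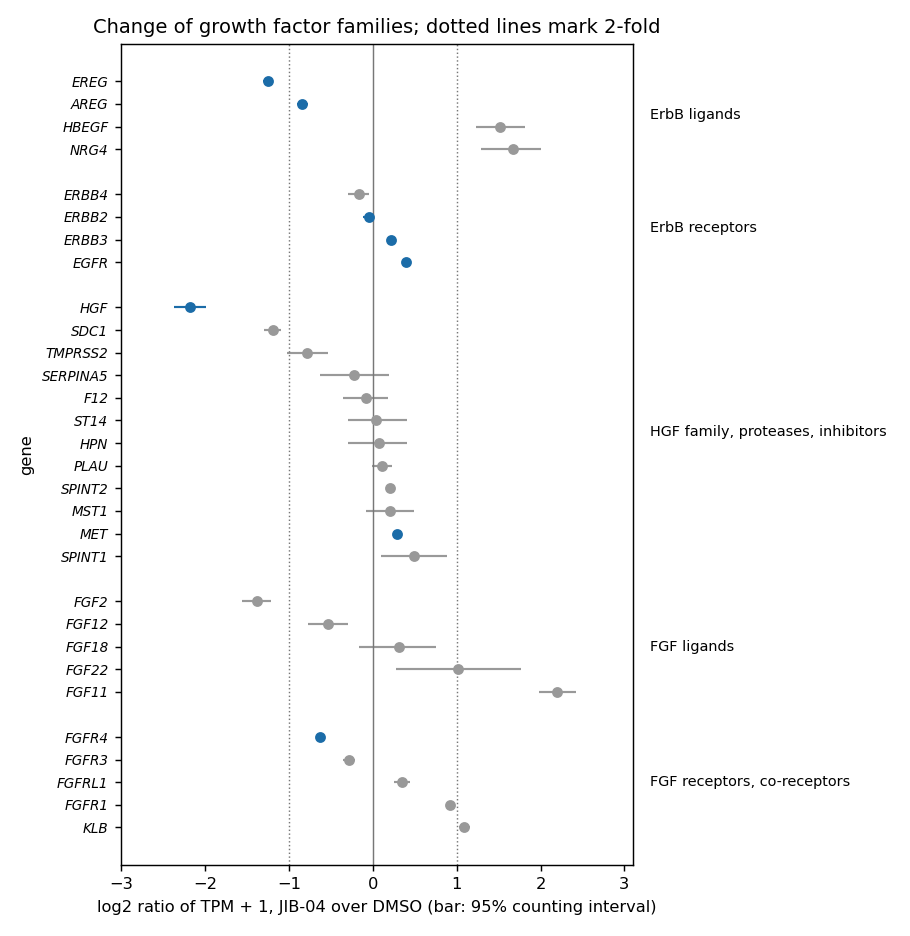
Log2 ratio of TPM + 1, JIB-04 over DMSO, for the expressed genes of the ErbB, HGF and FGF families, with 95% counting intervals (bars; 1 library per condition). The 8 expressed genes of the 10 are in blue and other family genes in grey; HGF lies lowest at -2.18 and FGF11 highest at 2.2, and dotted lines mark 2-fold.

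None of the expressed ligand shedding and receptor turnover genes passed 2-fold, against 5.99% of all genes higher and 6.88% lower. In lists this short that is a description only, and 1 turnover gene passed with a pseudocount of 0.1. Of 11 shedding genes 8 were expressed, with a median of 0.22, and the most abundant were the metalloproteases ADAM9 (235 and 338 TPM, ratio 0.52) and ADAM10 (185 and 154 TPM, ratio -0.26). Of 22 feedback and turnover genes 21 were expressed, with a median of 0.05. The highest of these was ERRFI1 (MIG6, an inhibitor of the EGFR kinase), at 359 and 633 TPM, a ratio of 0.82 (interval 0.78 to 0.85).

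Of 24 adaptors directly below the receptors 23 were expressed. Of these 1 passed 2-fold upward, against 5.99% of all genes, and 2 passed it downward, against 6.88%. GRB10, an adaptor that restrains insulin and IGF1 receptors, went from 71.4 to 235 TPM, with a log2 ratio of 1.70 (1.65 to 1.75). GRB2, which couples receptors to the RAS exchange factor SOS1, was at 105 and 47.8 TPM, a ratio of -1.12 (interval -1.21 to -1.04). SHC4 was at 3.70 and 1.23 TPM (ratio -1.08), and SHC1, at 416 and 208 TPM, lay just inside 2-fold. When the median of well expressed genes was set to 0, 0 adaptors were 2-fold lower and 2 were 2-fold higher. The number lower was 3 with quantile normalization, 4 with a pseudocount of 0.1 and 1 with a pseudocount of 5.

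Of 26 other receptors for growth factors 9 were expressed. Of these 2 were at least 2-fold higher, against 5.99% of all genes, and 0 were 2-fold lower, against 6.88%. IGF1R, the IGF1 receptor, was at 26.4 and 53.9 TPM, a ratio of 1.00 (interval 0.95 to 1.06) at the threshold itself, and FLT4 was at 0.0280 and 1.2 TPM, from about 1.5 and 56.8 fragments. Neither passed 2-fold in FPKM or with a pseudocount of 5, where the count was 0. AXL was at 116 and 201 TPM (ratio 0.79). Among 25 other ligands 19 were expressed and 2 were higher, against 5.99% of all genes. They were VEGFA (vascular endothelial growth factor A, 71.1 and 240 TPM, ratio 1.74) and GDF15 (861 and 2063 TPM, ratio 1.26). None of the 19 was 2-fold lower, against 6.88% of all genes, or 1 with a pseudocount of 0.1.

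Markers of cell types were set beside these values. Of 12 hepatocyte genes 11 were expressed, with the fibrinogen gene FGB the most abundant (771 and 961 TPM), although ALB (albumin) was low at 9.74 and 4.53 TPM. Of the 11 expressed hepatocyte genes 1 was 2-fold higher, against 5.99% of all genes, and 1 was 2-fold lower, against 6.88%. The lower one was APOB (apolipoprotein B), at 103 and 32.9 TPM (ratio -1.62). The higher one was the transcription factor gene FOXA2, at 13.0 and 42.7 TPM (ratio 1.65, or 0.31 after division by GAPDH). Of 10 mesenchymal or stellate genes, markers of the usual source of HGF in liver, 4 were expressed, with a median ratio of -0.44, and their list summed to 23.4 TPM in the control and 15.6 TPM in the treated library. These 4 were COL1A1 (16.0 and 10.6 TPM), LUM (4.58 and 2.66 TPM), COL3A1 (1.22 and 0.766 TPM) and RGS5 (1.2 and 1.14 TPM). COL1A2, DCN, ACTA2, PDGFRB, LRAT and THY1 were below 1 TPM in both libraries. As the samples were a cell line, these values do not count stellate or mesenchymal cells. Any link of these genes to the HGF result was not tested. None of 6 endothelial genes was expressed, with PECAM1 the most abundant at 0.538 and 0.331 TPM, and with 3 of the 6 listed at 0. Of 7 blood genes 2 were expressed, CD68 at 97.0 and 137 TPM and CD14 at 6.05 and 1.37 TPM. Of these 2 only CD14 (ratio -1.57) was 2-fold lower, against 6.88% of all genes, and it did not pass with a pseudocount of 5. PTPRC, CD163 and HBB were listed at 0. Of 5 biliary genes 4 were expressed, with KRT7 at 25 and 25.6 TPM. In bulk RNA, fewer cells that express a gene and less RNA per cell cannot be told apart.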

How the data were processed

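Libraries were prepared with a stranded mRNA kit. The tools in the submitters' processing notes are, per the labels, StringTie 1.3.3b, Trimmomatic 0.32, Bowtie2 2.2.6, HISAT2 2.0.5 and FastQC 0.11.5, with the build hg19. Per the file headers, the authors ran StringTie on annotated RefSeq transcripts only, with a strand setting, and the deposited files hold coverage, FPKM and TPM per transcript and coverage per exon, with no read counts.

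From there, TPM was summed per Entrez identifier, with symbols from RefSeq (GRCh38.p14) for 27559 of 27685 identifiers, and log2 ratios were computed with a pseudocount of 1. A gene counted as expressed at a TPM of 1 or more in any library, and 2-fold was the call. Aligned bases divided by 202 gave estimated fragments, 28187793 with DMSO and 23721989 with JIB-04, and 95% exact conditional binomial intervals (Poisson for levels) cover counting error only. With 1 library per condition no p-value was computed. The log2 ratio and its counting interval were tested on fragment counts simulated with counting error only. The other steps were not tested in this way. Named genes were the 10 chosen genes, from each pathway list those past 2-fold and up to 4 of the most abundant others, and the most abundant of each marker list. Named outside this rule, after their values were seen, were SPINT1, CYP7A1, CYP8B1 and the remaining markers. The genes and lists were chosen with earlier results of these data known. Python 3.11.15, numpy 2.4.6, pandas 2.3.3, SciPy 1.17.1 and matplotlib 3.10.9 were used. Protein sequences and promoters of ERBB3 and FGF19 were not analysed here.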

Additional observations from a re-analysis of the deposited data

How the results depend on the processing

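HGF was at least 2-fold lower and EREG lower under every alternative run, and 0 of the 8 expressed genes was 2-fold higher in any. No paired analysis was possible because each condition is 1 library. Counts of lower genes among the 8 were 4 at 1.5-fold and 1 at 3-fold, against 2. Over all genes, 439 higher and 409 lower passed with a pseudocount of 5, 1853 and 3030 at 1.5-fold, and 318 and 154 at 3-fold, against 865 and 994. In the pathway lists, 5 were higher with a pseudocount of 5, 21 higher and 17 lower at 1.5-fold, and 4 and 1 at 3-fold, against 10 and 6, and their median was 0.26 after setting the median of well expressed genes to 0 (a shift of -0.15 before) and 0.00 without a filter.

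The HGF ratio was -1.65 with a pseudocount of 5, -1.97 in FPKM and -1.95 for its most abundant transcript. Setting the median to 0 gave 0.44 for MET, 0.55 for EGFR, 0.10 for ERBB2, 0.37 for ERBB3, -0.48 for FGFR4, -0.68 for AREG and -1.10 for EREG, and quantile normalization 0.33 for MET, 0.06 for ERBB2 and -1.19 for EREG. The most abundant transcript gave 0.91 for EGFR (NM_005228) and -0.34 for ERBB2 (NM_004448). With DMSO another EGFR transcript, NM_001346898, was higher, at 54.0 against 49.8 TPM, and its ratio was -0.07. As the division of EGFR was unstable, the 0.91 is not interpreted. Exons shared by all transcripts gave 0.19 for MET and -0.13 for ERBB2. Division by GAPDH gave -3.52 for HGF, -2.59 for EREG, -2.17 for AREG, -1.97 for FGFR4, -1.39 for ERBB2, -1.12 for ERBB3, -1.05 for MET and -0.94 for EGFR. The full-length HGF share of TPM was 69.2% with DMSO and 50.1% with JIB-04. Coverage of the full-length exons was 51.2% and 42.1% of that of the shared exons. Without the last exon, an alternative chosen after seeing the data, it was 102% and 117%, a ratio of coverage and not a share. Relative to exons 6 and 7 the latter was 71.7% and 89.1%. A second AREG locus with its own identifier was not in the annotation used here, so that sum was not run. Depth limits TGFA and FGF19, which lie at or under 3 fragments.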
